A study of Mus musculus with 5 samples.

Results

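10 genes of the transforming growth factor beta (TGF-beta) system were followed through mammary tumours of PyMT mice: the ligands Tgfb1, Tgfb2 and Tgfb3, the receptors Tgfbr1, Tgfbr2 and Tgfbr3, the related ligand subunit Inhba, the matrix protein Ltbp2, the intracellular inhibitor Smad7 and the induced matrix gene Tgfbi. They were taken by name and are 10 of the 41028 gene names in the 5 matrices. PyMT tumours arise in mammary epithelium that carries the polyoma middle T antigen, so every sample comes from an epithelial tumour with its own stroma and immune cells, and no sample is normal tissue. Single cells were sequenced in 5 libraries. Fresh 10x 1 and fresh 10x 2 are fresh cells on the 10x Genomics system (3' chemistry, v2). Stored 10x is from the same system after cold storage, 24 h in its title and overnight at 4 °C in the protocol. BD 1 and BD 2 are from BD Rhapsody, both titled fresh, but the files of BD 2 are named for 24 h, so its storage is not known. The labels give neither strain nor age, and they do not say whether libraries came from separate animals, so p-values measure the spread between these libraries, which may be technical.

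TGF-beta is secreted in an inactive form, bound to its own propeptide and, through latent TGF-beta binding proteins, to the matrix. Proteases, integrins and thrombospondin release it. The free ligand binds TGFBR2, which activates TGFBR1, while TGFBR3 (betaglycan) presents ligand, TGF-beta 2 above all. The activated receptors phosphorylate SMAD2 and SMAD3, which enter the nucleus with SMAD4. SMAD7 is induced by the pathway and shuts the receptors down. In tumours the pathway is known for restraining epithelial growth and for driving fibroblasts to a contractile, matrix-producing state.

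The libraries held 29166129 to 59957945 UMIs (unique molecular identifiers, counts of captured molecules), in 15958 cells together. Median UMIs per cell ranged from 8926 to 12474 and the median mitochondrial share from 6.14% to 7.17% on 10x, against 15.2% and 19.8% on BD Rhapsody. Fresh 10x 2 and stored 10x shared 5 cell barcodes, BD 1 and BD 2 shared 24, and no other pair shared more than 1. Cells were clustered without the 10 genes, and classes were named from their markers. The T-like class also had the plasma cell transcripts Igkc and Igha among its leading genes, and its cells were not separated from NK cells. The macrophage-like class held mast cell transcripts on BD Rhapsody, where 5 summed mast markers reached 1004 and 1549 for each 1000000 UMIs, against 0, 0 and 0.987 on 10x. Their part in the macrophage-like levels was not tested. The macrophage-like class had 788 cells. In a finer clustering (Leiden resolution 2.0) it had 515, and a cluster of 278 cells led by Lyz2 and Mmp12 stayed unnamed. Fibroblast-like cells numbered 1188 and all 8 fibroblast markers were detected in them in every library. They were split by UMIs of Clec3b and Efemp1 against Cilp and Thbs4, which gave 643 Clec3b/Efemp1 fibroblasts and 517 Cilp/Thbs4 fibroblasts, with 28 ties left out. The split and the clustering placed 91.2% of cells alike, and 57 cells lay within 2 UMIs of the boundary. Clec3b/Efemp1 cells were 16.6% and 31.7% of fibroblast-like cells in the fresh 10x libraries and 64% to 66.5% in the other 3, so this state rested on 32 and 38 cells in fresh 10x.

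The cell class of each ligand was read in CPM, the UMIs of the gene for each 1000000 UMIs of the class, as a mean ± SD over the 5 libraries. Class levels are a description with no test, over 7 classes and without the 41 neutrophil-like cells. Tgfb1 had its highest levels in T-like cells (175 ± 121), macrophage-like cells (172 ± 107) and endothelial-like cells (150 ± 91.3). These classes overlapped library by library. Cilp/Thbs4 fibroblasts followed with 87 ± 64.7 and mural-like cells with 66.6 ± 45.2, while epithelial-like cells (20.1 ± 14.2) and Clec3b/Efemp1 fibroblasts (17.4 ± 12.5) were lowest and overlapped. The SD of Tgfb1 went with a gap between platforms: in macrophage-like cells the 10x libraries stood at 206 to 270 and the BD libraries at 54.1 and 60.8. In T-like cells the 10x values were 237 to 286 and the BD values 28.1 and 61.4. The BD values lay below every 10x value in each of these classes. By share of UMIs the order differed, and epithelial-like cells held the most Tgfb1 UMIs of named classes in every library. Their shares were 45.4%, 53.3%, 67%, 42.9% and 47.8% in fresh 10x 1, fresh 10x 2, stored 10x, BD 1 and BD 2.

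Tgfb2 followed another order. Mural-like cells (98.3 ± 39.8, from only 84 UMIs in all) and epithelial-like cells (58.2 ± 11) led, with overlapping ranges. Clec3b/Efemp1 fibroblasts had 42.7 ± 9.14 and Cilp/Thbs4 fibroblasts 33.4 ± 8.36. Endothelial-like cells had 17.5 ± 7.42, below every fibroblast value, and T-like and macrophage-like cells had 8.01 ± 8.86 and 7.12 ± 4.28. Epithelial-like cells, the most numerous class, held 90.1% to 93.4% of the Tgfb2 UMIs of named classes in each library.

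Tgfb3 was highest in Cilp/Thbs4 fibroblasts, at 124 ± 18.5, in all 5 libraries above epithelial-like cells (90.2 ± 26.6), although the ranges over libraries overlapped. Mural-like cells had 83 ± 22.9. Clec3b/Efemp1 fibroblasts had 23.7 ± 4.43 and endothelial-like cells 6.33 ± 8.93. Epithelial-like cells held 84.5% to 93.8% of the Tgfb3 UMIs. Inhba encodes the beta A subunit that dimerises into activin A, a ligand that signals through SMAD2 and SMAD3 by its own receptors. Its UMIs were few and its level was highest in Cilp/Thbs4 fibroblasts (46.4 ± 19.2). These fibroblasts held 68.6%, 76.5%, 23.8%, 44.9% and 46.1% of the Inhba UMIs of named classes in the order of the libraries, and epithelial-like cells 21.3%, 12.2%, 55%, 41.7% and 39%. In stored 10x the epithelial-like share was the larger one. Mural-like cells had 30.8 ± 43.4 from 17 UMIs in all, and Clec3b/Efemp1 fibroblasts 4.95 ± 1.78, with lower means in the other classes.

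By level, the receptors peaked in fibroblasts or in macrophage-like cells. Tgfbr2, the ligand-binding receptor, stood at 858 ± 215 in Clec3b/Efemp1 and 597 ± 170 in Cilp/Thbs4 fibroblasts. The lowest fibroblast value, 401, was above the highest value of any other class. Endothelial-like (126 ± 27.6), macrophage-like (121 ± 48.3), T-like (113 ± 33.8) and mural-like cells (97.3 ± 53.9) overlapped one another, and epithelial-like cells had 33 ± 5.33. Tgfbr3 had the same order at its top, with 374 ± 77.3 in Clec3b/Efemp1 fibroblasts, 158 ± 80.2 in Cilp/Thbs4 fibroblasts and 59.8 ± 17.4 in endothelial-like cells, and its lowest level was in macrophage-like cells at 6.13 ± 1.47. Tgfbr1, the signalling partner of Tgfbr2, instead peaked in macrophage-like cells at 234 ± 61.1. The macrophage-like values ran from 160 to 302, above those of every other named class, of which Cilp/Thbs4 fibroblasts (46.9 ± 9.61) had the next highest mean. Epithelial-like cells, the most numerous class, still held 19.4% to 38% of the Tgfbr2 and 28.3% to 48.1% of the Tgfbr3 UMIs of named classes. Of the Tgfbr1 UMIs they held 65.7%, 60.3%, 70.2%, 36.9% and 44.5% in the order of the libraries. Macrophage-like cells held 9.67%, 22.9%, 15.7%, 47.4% and 44.4% of them in that order.

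Smad7 was highest in T-like cells, with 473, 382 and 424 in fresh 10x 1, fresh 10x 2 and stored 10x and 159 and 203 in BD 1 and BD 2. The T-like level exceeded the endothelial-like level (144 ± 84.5) in all 5 libraries, but the platforms differed so much that the ranges overlapped. Macrophage-like cells had 139 ± 67.9, and both fibroblast states, mural-like and epithelial-like cells lay between 47.9 and 58.6 in the mean. Tgfbi, a secreted protein that binds collagen and integrins, belonged to macrophage-like cells: 408, 325 and 512 in the 10x libraries and 652 and 483 in BD 1 and BD 2. Endothelial-like cells followed at 59 ± 19.7, with no overlap, and epithelial-like cells had 1.05 ± 0.278. A neutrophil-like cluster of 41 cells also held Tgfbi, with 193, 0, 279, 469 and 265 in the order of the libraries, from 2 to 12 cells each. Ltbp2, which in spite of its name is known to bind fibrillin and not latent TGF-beta, had 120 ± 38.9 in Cilp/Thbs4 fibroblasts, 62 ± 76.2 in Clec3b/Efemp1 fibroblasts and 30.4 ± 5.11 in epithelial-like cells.

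**Figure D1:**
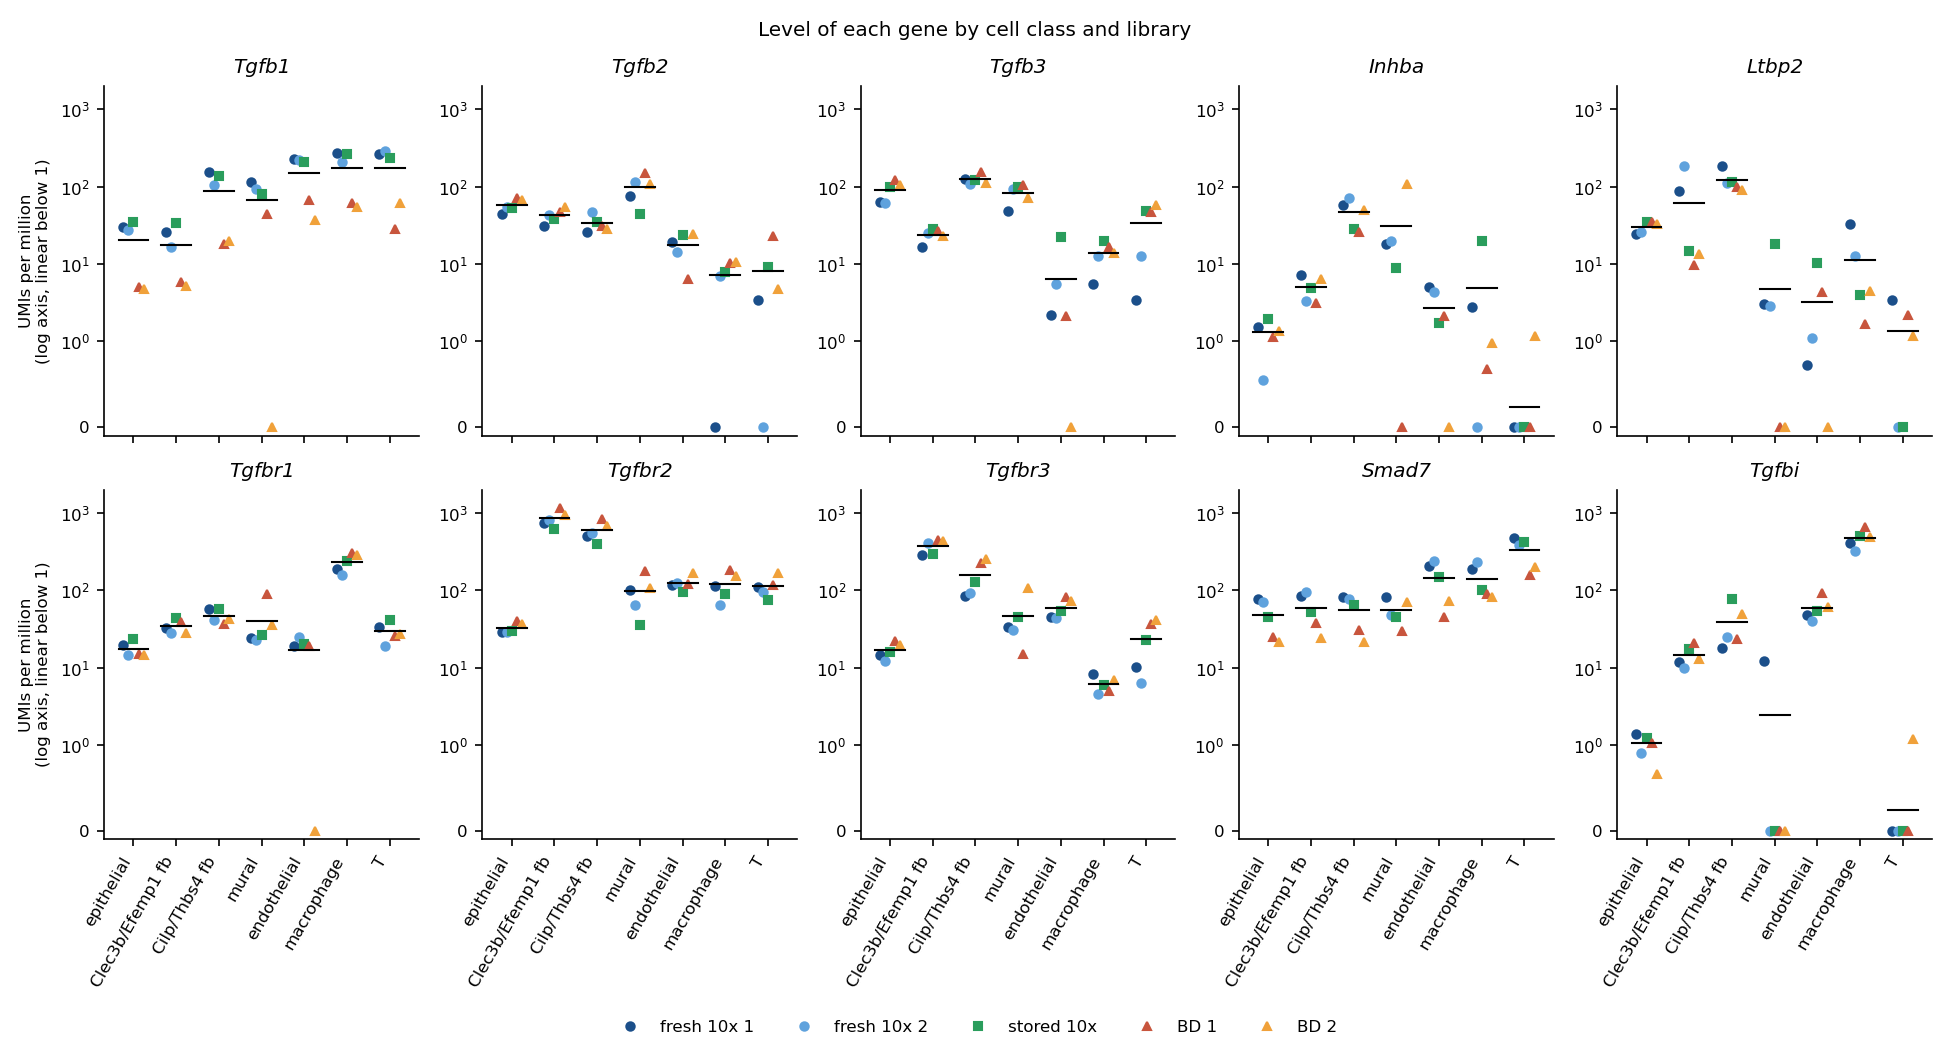
Level of each of the 10 genes (CPM, log axis that is linear below 1) in 7 cell classes, with a point for each library and a bar for the mean over the 5 libraries; the 41 neutrophil-like cells are not drawn. Tgfbr2 and Tgfbr3 are highest in the fibroblast states, Tgfbr1 and Tgfbi in macrophage-like cells, and the BD points of Tgfb1 and Smad7 lie below the 10x points in most classes.

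The split of the fibroblasts asked which of these genes separate a Clec3b/Efemp1 from a Cilp/Thbs4 state within the same library. UMIs were summed per library and state, and the states were compared with edgeR's quasi-likelihood test with the library as a block and Benjamini-Hochberg adjustment over 9618 genes. All 10 genes were tested, and neither the split nor the clustering used them. In this contrast 7 of the 10 passed an adjusted p of 0.05, 4 higher and 3 lower in Cilp/Thbs4 fibroblasts. Among all genes tested 21.2% passed, 10.5% higher and 10.8% lower. The genes that rose were 3 ligand genes and Tgfbi, and those that fell were Tgfb2 and the receptors Tgfbr2 and Tgfbr3.

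Tgfb3 (chr12:86056745-86079041 in mm10, minus strand) had 16.5, 24.8, 28, 26.3 and 23 CPM in Clec3b/Efemp1 fibroblasts of fresh 10x 1, fresh 10x 2, stored 10x, BD 1 and BD 2, and 126, 107, 123, 154 and 110 in Cilp/Thbs4 fibroblasts in that order. The groups did not overlap, and the BD values lay among the 10x values except for the 154 of BD 1. The log2 fold change was 2.33 (SE 0.122, edgeR adjusted p = 8.98e-10). Tgfb1 (chr7:25687002-25705077, plus strand) had 25.9, 16.5, 33.6, 5.79 and 5.11 in Clec3b/Efemp1 fibroblasts and 154, 105, 138, 18 and 19.9 in Cilp/Thbs4 fibroblasts. Each library showed the rise, while the BD values of the higher state lay at the level of the 10x values of the lower state. Its log2 fold change was 2.08 (SE 0.15, edgeR adjusted p = 3.4e-08).

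Inhba (chr13:16011851-16031621, plus strand) had 7.07, 3.31, 4.86, 3.12 and 6.39 in Clec3b/Efemp1 fibroblasts, from 2 to 15 UMIs a library. In Cilp/Thbs4 fibroblasts it had 58.1, 70.3, 28.3, 25.7 and 49.8. The groups did not overlap, and the change of 2.99 on the log2 scale was the largest of the 10 genes (SE 0.207, edgeR adjusted p = 2.4e-08). Single cells held much of it: 41 of the 65 UMIs in Cilp/Thbs4 fibroblasts of BD 2 and 36 of the 88 in those of fresh 10x 2 came from 1 cell each. With the richest cell left out of every sum, an alternative chosen after seeing the data, the log2 fold change was 2.86 (edgeR adjusted p = 8.39e-07). Tgfb2 (chr1:186622792-186705989, minus strand) moved the other way, with 30.6, 43, 38.1, 46.8 and 55 in Clec3b/Efemp1 and 26, 47.2, 35, 30.6 and 28.3 in Cilp/Thbs4 fibroblasts. The groups overlapped, and fresh 10x 2 went against the rest. The edgeR log2 value was -0.44 (SE 0.152, adjusted p = 0.049), a call made in 3 of 14 alternatives, and on 10x alone it was -0.13 (adjusted p = 0.769). It failed without fresh 10x 1 (-0.45, adjusted p = 0.0695), stored 10x (-0.52, 0.0604), BD 1 (-0.39, 0.213) or BD 2 (-0.30, 0.233).

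Of the genes that passed in the main state contrast, Tgfb1, Inhba, Tgfbi, Tgfb2 and Tgfbr2 have a start window in the RefSeq table used here (7 of the 10 genes do, and Tgfb3 and Tgfbr3 are among the others). The call of Tgfb2 held in only 3 of 14 alternatives and that of Tgfbi in 7. The 250 bases before the RefSeq start are printed for 2 ligand genes that rose and for the ligand and the receptor gene that fell. They lie on the GRCm38.p6 build at chr7:25686752-25687001 (plus strand) for Tgfb1, chr13:16011601-16011850 (plus) for Inhba, chr1:186705990-186706239 (minus) for Tgfb2 and chr9:116175364-116175613 (minus) for Tgfbr2, and are written 5′ to 3′ along the gene. Capitals mark matches on either strand to the SMAD-binding element, CAGACA. They also mark the GC box, whose letters are GGGCGG. The TATA box was searched as TATAAA. An AP-1 site was searched as TGANTCA, and no motif overlaps another.
Tgfb1: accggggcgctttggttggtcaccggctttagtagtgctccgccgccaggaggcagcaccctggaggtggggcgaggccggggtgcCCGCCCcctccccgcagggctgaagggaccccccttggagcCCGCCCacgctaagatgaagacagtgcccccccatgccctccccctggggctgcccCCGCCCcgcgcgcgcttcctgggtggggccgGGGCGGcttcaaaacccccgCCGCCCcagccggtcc
Inhba: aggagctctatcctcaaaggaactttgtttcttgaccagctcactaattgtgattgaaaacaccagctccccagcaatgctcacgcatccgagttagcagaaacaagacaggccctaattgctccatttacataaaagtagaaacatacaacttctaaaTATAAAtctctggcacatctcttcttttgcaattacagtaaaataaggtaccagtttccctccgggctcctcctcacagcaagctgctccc
Tgfb2: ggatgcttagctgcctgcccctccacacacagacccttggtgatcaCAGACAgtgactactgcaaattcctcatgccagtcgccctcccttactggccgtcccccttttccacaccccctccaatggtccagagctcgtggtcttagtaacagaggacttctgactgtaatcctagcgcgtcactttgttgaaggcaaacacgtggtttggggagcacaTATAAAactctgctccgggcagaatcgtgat
Tgfbr2: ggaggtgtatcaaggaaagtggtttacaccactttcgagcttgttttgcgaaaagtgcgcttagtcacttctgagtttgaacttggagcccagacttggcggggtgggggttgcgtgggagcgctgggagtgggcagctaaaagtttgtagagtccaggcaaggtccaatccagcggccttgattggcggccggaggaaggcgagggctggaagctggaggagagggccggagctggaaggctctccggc
The windows of the genes that rose differ in make-up. Tgfb1 is 75.2% G or C with 21 CpG pairs and 5 GC boxes. Inhba is 43.2% G or C with 3 CpG pairs and 1 TATA box, at -91 from the start. Tgfb2 is 53.6% G or C with a SMAD-binding element at -204 and a TATA box at -31, and Tgfbr2, at 58.4%, holds none of the 4 motifs. Over all 32851 windows of this length the median is 52.4% G or C. The SMAD-binding element occurs in 17.1% of them, the GC box in 32.7%, the TATA box in 12.4% and the AP-1 site in 6.75%. These matches are descriptions of letters and were not tested as binding sites.

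The receptors with fibroblast levels far above other classes were the ones that fell. Tgfbr3 (chr5:107106570-107289629, minus strand) had 290, 404, 293, 452 and 431 CPM in Clec3b/Efemp1 fibroblasts and 84.6, 91.1, 129, 228 and 258 in Cilp/Thbs4 fibroblasts. The groups did not overlap, and the BD libraries were the highest in both states. Its log2 fold change was -1.35 (SE 0.244, edgeR adjusted p = 0.0144). Tgfbr2 (chr9:116084293-116175360, minus strand) had 735, 821, 613, 1175 and 948 in Clec3b/Efemp1 and 510, 555, 401, 846 and 671 in Cilp/Thbs4 fibroblasts. The level fell in each library while the 2 ranges overlapped, and the log2 fold change was -0.57 (SE 0.0723, edgeR adjusted p = 1.86e-05). Tgfbr1 (chr4:47353222-47414931, plus strand) did not pass. Its log2 fold change was 0.33 (SE 0.139, edgeR adjusted p = 0.112). It had 33, 28.1, 43.8, 39.2 and 28.1 in Clec3b/Efemp1 and 57.6, 40.8, 56.5, 36.5 and 42.9 in Cilp/Thbs4 fibroblasts. BD 1 was the library without the rise, and without it the value was 0.49 (adjusted p = 0.0417).

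Smad7 had 84.8, 94.3, 52.3, 37.6 and 23.9 in Clec3b/Efemp1 and 81.6, 77.5, 64.7, 30.6 and 21.5 in Cilp/Thbs4 fibroblasts. Its log2 fold change was -0.12 (SE 0.125, edgeR adjusted p = 0.588). The 10x libraries were above the BD libraries in both states. Tgfbi (chr13:56609523-56639562, plus strand) had 11.8, 9.93, 17.4, 20.9 and 12.8 in Clec3b/Efemp1 and 18, 24.8, 76.6, 23.4 and 49 in Cilp/Thbs4 fibroblasts, higher in every library, most in stored 10x and BD 2. Its log2 fold change was 1.29 (SE 0.327, edgeR adjusted p = 0.0268). One cell held 30 of the 64 UMIs in BD 2. Summed macrophage markers, whose class has the highest Tgfbi level, were at 4.71, 19.9, 34.4, 17.1 and 57.1 CPM in Clec3b/Efemp1 and 25, 77.5, 103, 19.8 and 46.7 in Cilp/Thbs4 fibroblasts, against at least 10449 in macrophage-like cells. They were higher in Cilp/Thbs4 fibroblasts in every library but BD 2. Without cells holding any UMI of C1qa, C1qb or C1qc, a restriction chosen after seeing the data, Tgfbi had a log2 fold change of 1.08 (adjusted p = 0.112), and with clusters in place of the split it had 0.50 (adjusted p = 0.582).

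Ltbp2 (chr12:84783212-84876532, minus strand) had 187, 110, 116, 99.1 and 88.9 in Cilp/Thbs4 fibroblasts. In Clec3b/Efemp1 fibroblasts it had 87.2 and 185 in fresh 10x 1 and 2 but 14.6, 9.57 and 13.2 in stored 10x, BD 1 and BD 2. Fresh 10x 2 was the library in which the Clec3b/Efemp1 state was higher. By edgeR the change of 1.75 on the log2 scale (SE 0.798, adjusted p = 0.239) did not pass; without fresh 10x 2 it was 2.61 (adjusted p = 0.0294), and with DESeq2 1.96 (adjusted p = 0.0297). The 112 Clec3b/Efemp1 UMIs of fresh 10x 2 came from 8 of 38 cells, 31 of them from 1 cell.

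**Figure D2:**
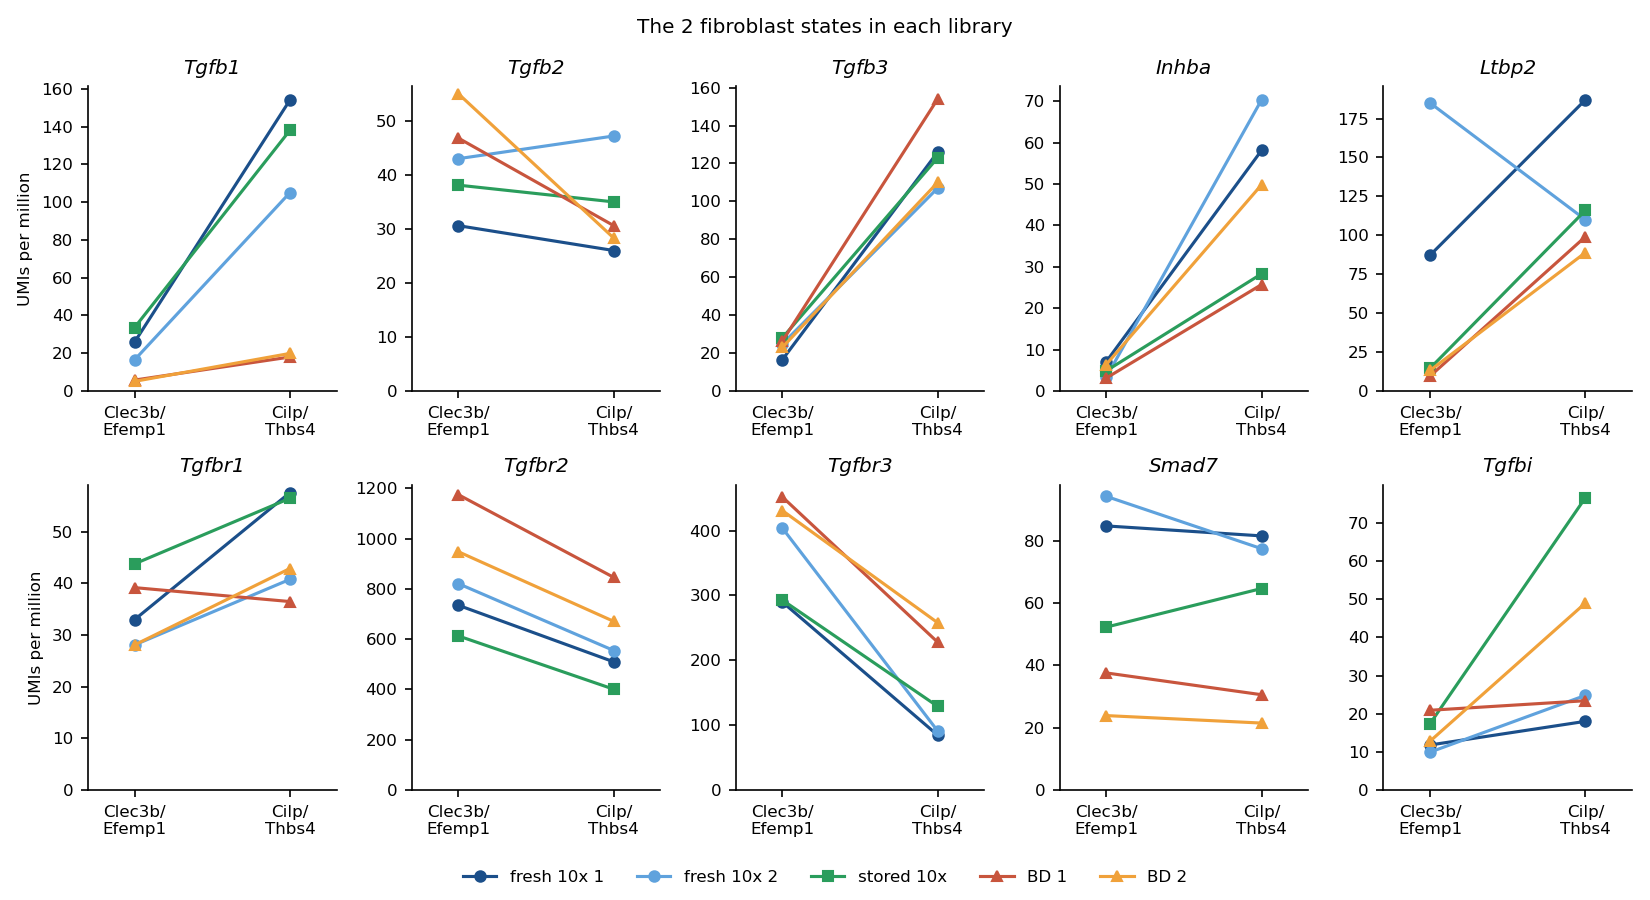
CPM of each of the 10 genes in Clec3b/Efemp1 (left) and Cilp/Thbs4 (right) fibroblasts, with a line for each library and its own linear axis for each gene. Tgfb1, Tgfb3 and Inhba rise and Tgfbr2 and Tgfbr3 fall in every library, while Ltbp2 crosses in fresh 10x 2.

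Inhba, Tgfb3 and Tgfbr3 passed in all 14 alternatives, and Tgfb1 and Tgfbr2 in 13 of 14, each failing without the library block (adjusted p = 0.0938 and 0.233). Tgfbi passed in 7, failing also when fresh 10x 1, fresh 10x 2, stored 10x or BD 2 was left out (adjusted p = 0.053, 0.0724, 0.0562 and 0.08). Whether the state difference itself differed between platforms was tested as an interaction, in which 0.198% of 9618 genes passed (19 genes, and 638 at an unadjusted p under 0.05) and 0 of the 10 did. The smallest p of the 10 was that of Tgfbr3, whose fall was smaller on BD Rhapsody by 0.88 on the log2 scale (SE 0.245, unadjusted p = 0.0044, edgeR adjusted p = 0.347). Tgfb2 also had an unadjusted p under 0.05 (0.0335), DESeq2 called 0 of the 10, and with no filter on low counts Tgfbr3 passed (adjusted p = 0.000577).

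The genes around these 10 were read from 5 lists chosen by role. The count of each list is to be read beside the 21.2% of all genes that passed, 10.5% higher and 10.8% lower. Of 13 genes of latency and activation, 10 were tested and 7 passed, 5 higher and 2 lower in Cilp/Thbs4 fibroblasts, with a median log2 fold change of 0.50 beside -0.01 over all genes. Itgb5 (1.44, adjusted p = 1.34e-08) and Itgav (0.78, adjusted p = 2.19e-05), which together form an integrin known to activate the latent ligand, rose. So did Lrrc32 (0.63), a cell-surface anchor of latent TGF-beta, the membrane protease Mmp14 (0.57) and the propeptide-cleaving protease Furin (0.43). Ltbp1, the binding protein that holds latent TGF-beta in the matrix, fell by 1.45 on the log2 scale (adjusted p = 3.05e-05), and fibrillin 1, Fbn1, had -0.22. Lrrc32 failed in 7 of 14 alternatives, among them without BD 1, BD 2 or stored 10x (0.44, 0.53 and 0.59, adjusted p = 0.231, 0.153 and 0.165).

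Of 14 SMADs and regulators, 13 were tested and 4 passed, with a median of 0.02, a count to be read beside the 21.2% of all genes that passed. Pmepa1, a TGF-beta-induced membrane protein that dampens the pathway, rose by 1.71 (SE 0.0861, edgeR adjusted p = 5.65e-10), and the SMAD repressor Skil rose by 0.78 (adjusted p = 9.78e-05). The ubiquitin ligase Smurf2 and the BMP-responsive Smad1 had -0.62 and -0.44 (adjusted p = 0.00879 and 0.0453). Smurf2 failed in 5 alternatives, among them without BD 1 or stored 10x (-0.52 and -0.47, adjusted p = 0.112 and 0.0537). Smad1 failed in 9, and when any library but fresh 10x 2 was left out it lay between -0.47 and -0.35 (adjusted p = 0.0755 to 0.272). Smad2, Smad3 and Smad4 had values of 0.02, -0.15 and -0.00 and did not pass. Of 10 other receptors of the family 7 were tested and 2 passed, the activin receptor-like kinase gene Acvr1 (0.52) and the BMP receptor gene Bmpr2 (0.48), with a list median of 0.11, again beside 21.2% of all genes. Both failed on 10x alone (adjusted p = 0.184 and 0.171), and Acvr1 also without BD 1 or stored 10x (0.52 and 0.45, adjusted p = 0.0506 and 0.0643).

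Of 16 other ligands and secreted antagonists 10 were tested and 7 passed, 3 higher and 4 lower, with a median of -0.28. Among BMP-type ligands Gdf10 had -2.28 (adjusted p = 0.00657), Bmp6 -2.02 (adjusted p = 6.89e-05) and Bmp4 -0.87 (adjusted p = 0.0201), and the follistatin-like Fstl1 had -0.31. Fstl3, a secreted inhibitor of activin, rose by 1.41 (adjusted p = 3.63e-05) in the state where Inhba rose. Gdf11 (1.02) and the BMP antagonist Chrd (0.94) rose too. Gdf10 failed on 10x alone (-2.27, adjusted p = 0.154) and Gdf11 without stored 10x (0.88, adjusted p = 0.0501).

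Of 16 textbook fibroblast targets of TGF-beta 15 were tested and 9 passed, 8 higher and 1 lower, with a median of 1.04. Cdkn2b, a cell cycle inhibitor induced by TGF-beta, rose by 3.47 (SE 0.165, edgeR adjusted p = 3.84e-10), and Ctgf (Ccn2), a matricellular protein, by 2.23 (SE 0.158, adjusted p = 1.64e-05). The contractile genes Tagln and Acta2 rose by 4.22 and 3.59 with wide errors (SE 0.931 and 0.699, adjusted p = 0.0449 and 0.0314). Tagln failed in 8 and Acta2 in 6 of 14 alternatives. Without fresh 10x 1, stored 10x, BD 1 or BD 2 the adjusted p was 0.1 to 0.148 for Tagln (3.77 to 4.51) and 0.082 to 0.114 for Acta2 (3.14 to 3.70). Mural-like cells also have Acta2 among their leading genes. Summed mural markers were at 51.3 to 115 CPM in Clec3b/Efemp1 and 79.9 to 157 in Cilp/Thbs4 fibroblasts, against at least 10785 in mural-like cells. Their part in the rise of Acta2 and Tagln was not tested. Postn (1.98), Id1 (1.49), Col1a1 (0.73) and Col1a2 (0.60) rose, and the target that fell was Fn1, fibronectin (-0.89, adjusted p = 4.3e-07). The 2 collagen genes are also among the markers that named the fibroblasts, and Postn is among the leading genes of the Cilp/Thbs4 cluster. The targets also differed between libraries within a state. Their median log2 fold change in stored against fresh 10x was -0.52 in Clec3b/Efemp1 and -0.16 in Cilp/Thbs4 fibroblasts. In BD 1 against fresh 10x it was -0.41 and 0.09. Over all genes these medians were 0.01 in Clec3b/Efemp1 and 0.00 in Cilp/Thbs4 fibroblasts. The causes were not tested.

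**Figure D3:**
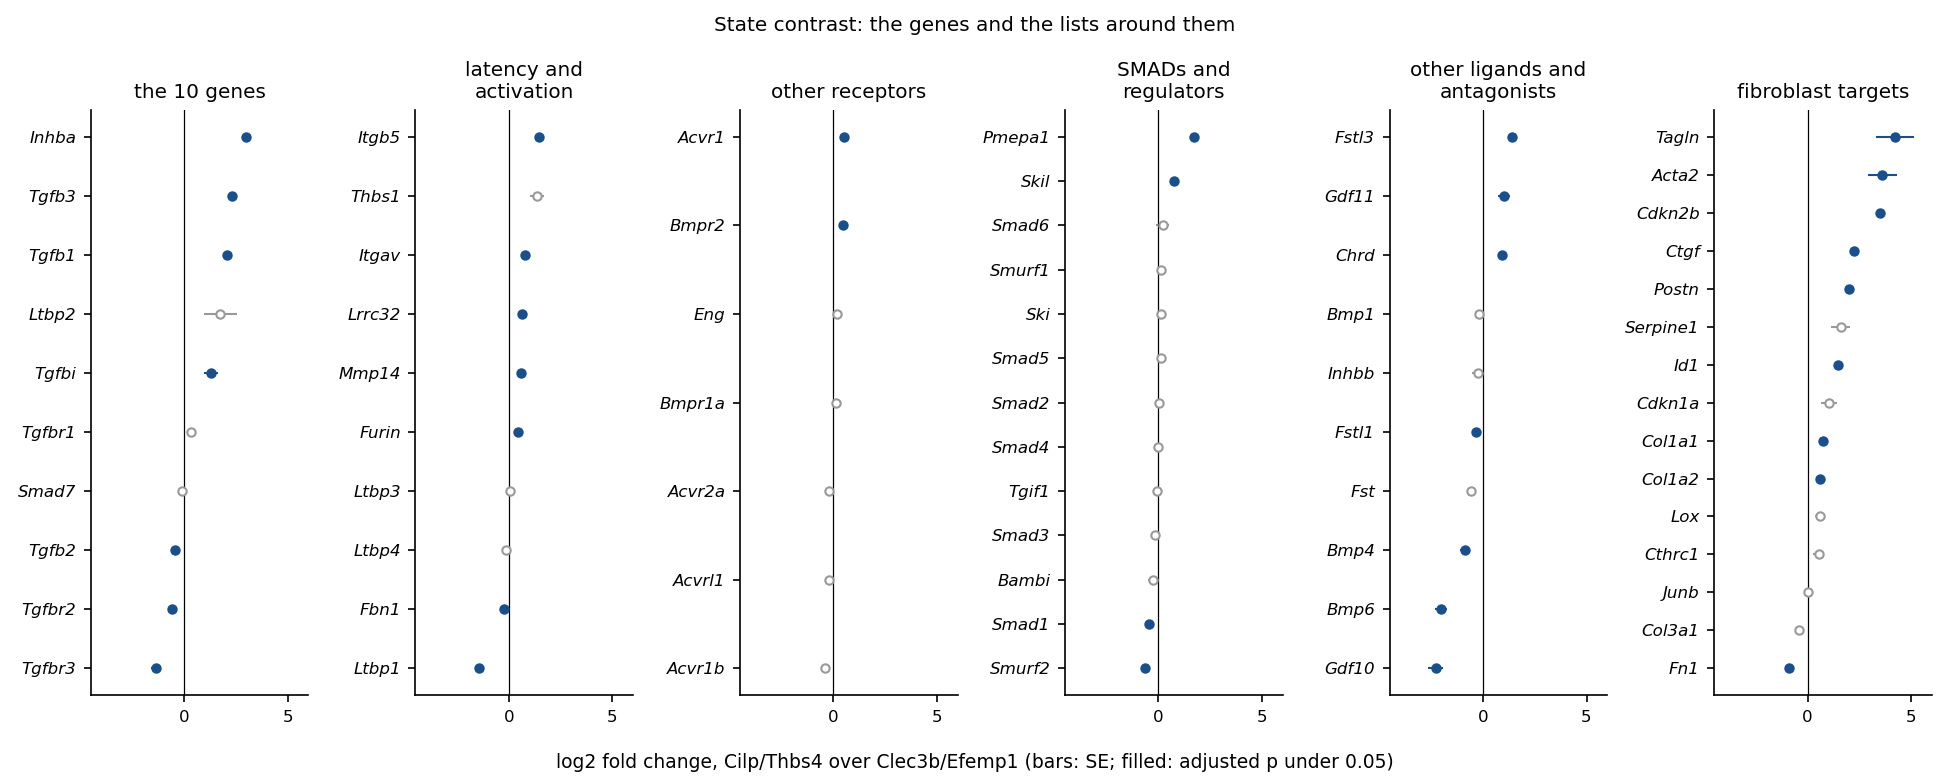
Log2 fold change of Cilp/Thbs4 over Clec3b/Efemp1 fibroblasts for the 10 genes and for the tested genes of the 5 lists (bars: SE; filled points: edgeR adjusted p under 0.05). The fibroblast targets lie mostly to the right, with a median of 1.04, and the other ligands and antagonists spread to both sides.

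Within epithelial-like cells the genes fell into different clusters, described without a test. Cells led by Krt5, Krt14 and Krt17, keratins of the basal mammary layer, had the highest Ltbp2 (108 ± 15.6 CPM, SD over 5 libraries), Tgfbr3 (43.4 ± 11.2) and Tgfbi (18.4 ± 4.43). Of 189 epithelial-like Tgfbi UMIs 90 were in this cluster, and no other epithelial-like cluster had a mean over 1.92. The lowest Ltbp2 value there, 88.5, was above the highest of any other epithelial-like cluster. The same cells had a low Tgfb2, 27.2 ± 3.54. Cells led by the milk genes Csn1s2a, Csn2 and Glycam1 had the highest Tgfb2 (100 ± 22.1) and Tgfb3 (153 ± 47.5), with ranges that overlapped those of other clusters. Tgfb2 and Tgfb3 parted in the cycling cells led by Ube2c, Birc5 and Pclaf, whose Tgfb2 was 71.9 ± 13.4 and whose Tgfb3 was 44.9 ± 8.93, where only the small cluster led by Gm4847 had a lower mean. Cells led by Npy, Spp1 and Cp held 155 of the 246 epithelial-like Inhba UMIs (8.12 ± 3.23 CPM), and the next highest mean was 2.31.

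**Figure D4:**
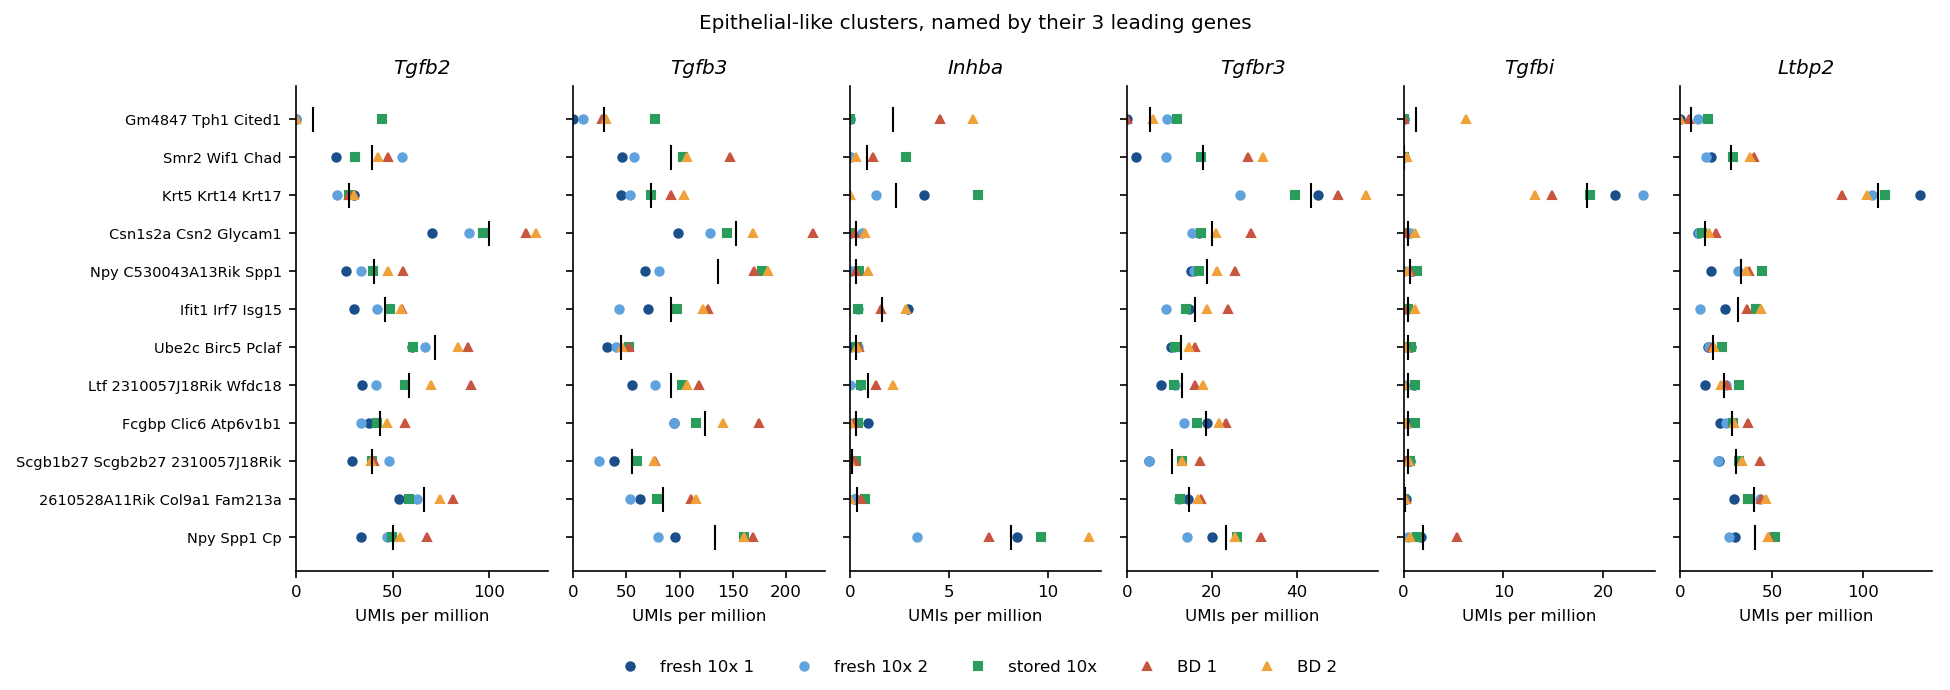
CPM of 6 of the genes in each epithelial-like cluster, named by its 3 leading genes, with a point for each library and a bar for the mean (linear axes, each gene its own). Ltbp2, Tgfbr3 and Tgfbi are highest in the Krt5 cluster, and Tgfb2 and Tgfb3 in the milk gene cluster.

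Storage was tested as stored 10x against the 2 fresh 10x libraries in 3 classes. These fits have 1 residual degree of freedom between libraries and borrow the spread from all genes, and a single stored library cannot be told apart from its storage. In Clec3b/Efemp1 fibroblasts 1 of the 10 genes passed (2.28% of all genes did): Ltbp2 fell from 87.2 and 185 to 14.6 (log2 fold change -3.28, SE 0.327, edgeR adjusted p = 1.4e-20). The fresh values rest on 8 cells with a UMI in each library, and the borrowed spread need not reflect the gap between them. In Cilp/Thbs4 fibroblasts 2 of 10 passed (3.63% of all genes). Tgfbi rose from 18 and 24.8 to 76.6 (1.89, SE 0.25, edgeR adjusted p = 0.00603), in the library with the highest macrophage marker sum, 103 against 25 and 77.5. Inhba fell from 58.1 and 70.3 to 28.3 (-1.16, SE 0.252, edgeR adjusted p = 0.0471). Both failed with DESeq2 (adjusted p = 0.371 and 1) and when BD 2 was fitted with BD 1 (0.0567 and 0.158). Summed epithelial markers in the fibroblasts were also highest in stored 10x, at 1251 against 151 and 172 CPM in Clec3b/Efemp1 and 1749 against 224 and 188 in Cilp/Thbs4 cells (at least 10015 in epithelial-like cells). Neither the part of the macrophage markers nor that of the epithelial markers was tested.

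In epithelial-like cells 2 of 10 passed after storage (1.79% of all genes). Tgfb3 rose from 63.9 and 61.6 to 98.1 (0.66, SE 0.109, edgeR adjusted p = 0.0288), and Smad7 fell from 77.2 and 71.1 to 44.8 (-0.71, SE 0.122, edgeR adjusted p = 0.0324). For both genes the stored value lay outside the fresh pair. Tgfb3 failed with DESeq2 (adjusted p = 0.0715).

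The platforms were compared as BD 1 against the 2 fresh 10x libraries, with the platform and the library not to be told apart. In Clec3b/Efemp1 fibroblasts 3 of 10 genes passed (23.6% of all genes), in Cilp/Thbs4 fibroblasts 5 (33.3%) and in epithelial-like cells 7 (43.4%). Tgfb1 and Smad7 were lower on BD 1 in all 3 classes. Tgfb1 in epithelial-like cells was 29.5 and 27 in fresh 10x and 4.96 in BD 1 (-2.66, SE 0.154, edgeR adjusted p = 9.23e-06), and in Cilp/Thbs4 and Clec3b/Efemp1 fibroblasts its log2 fold changes were -2.94 and -2.00 (adjusted p = 0.00027 and 0.00142). Smad7 in epithelial-like cells was 77.2 and 71.1 against 25 (-1.72, SE 0.129, edgeR adjusted p = 2.98e-05), with -1.45 and -1.44 in the fibroblast states (adjusted p = 0.000991 and 8.73e-06). In Clec3b/Efemp1 fibroblasts DESeq2 called 1 of these 3 genes, Ltbp2: Smad7 failed (adjusted p = 0.0965), and Tgfb1 had a value of -2.04 but was given no adjusted p.

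The other platform differences were smaller or held in fewer classes. Tgfbr3 was higher on BD 1 in Cilp/Thbs4 fibroblasts (1.31, adjusted p = 0.000312) and epithelial-like cells (0.58, adjusted p = 0.0179), and Tgfbr2 in the same 2 classes (0.60 and 0.33, adjusted p = 0.00687 and 0.0423). Tgfb3 (0.82, adjusted p = 0.000474), Tgfb2 (0.39, adjusted p = 0.0388) and Ltbp2 (0.33, adjusted p = 0.0463) were higher on BD 1 in epithelial-like cells. In Clec3b/Efemp1 fibroblasts Ltbp2 was lower by 4.04 on the log2 scale, at 9.57 against 87.2 and 185 in fresh 10x. Those fresh values rest on 8 cells with a UMI in each library. The spread of this fit is borrowed from all genes and need not reflect the gap between them. In Cilp/Thbs4 fibroblasts Inhba was lower by 1.38. DESeq2 did not call Tgfbr2 in either class (adjusted p = 0.149 and 0.348), Inhba (0.113), or Tgfb2, Tgfbr3 and Ltbp2 in epithelial-like cells (0.195, 0.157 and 0.364). Platform and storage comparisons share the fresh 10x libraries.

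The genes with the most similar patterns were found by Pearson correlation of log2(CPM + 1) over 40 sums (8 classes, neutrophil-like cells included, in 5 libraries) among 9193 genes. The sums of a library share its depth and platform, so the values are descriptions. The neutrophil-like sums rest on only 2 to 12 cells and 2749 to 57581 UMIs a library, yet count as much as the larger sums. Their part in these values was not tested. Tgfb2 was most like Enah (r = 0.928), an actin regulator, and Trip6 (0.901). Smad7 was most like Ddx39 (0.905) and Vgll4 (0.841), Tgfbr1 like Fnip1 (0.894) and Snx5 (0.844), and Tgfb3 like Pard3 (0.893), a cell polarity gene, and Crispld2 (0.868). Tgfbr2 followed the metalloproteinase inhibitor Timp2 (0.892) and Ahnak (0.854), and Tgfbr3 followed Calu (0.869) and Creb3l1 (0.854). Ltbp2 was nearest to 1500015O10Rik (0.884) and Irs1 (0.833), and Inhba to Nkd2 (0.882) and the collagen gene Col8a1 (0.855). Tgfbi came closest to Sgk3 (0.846) and the cytokine receptor gene Csf2rb2 (0.792), and Tgfb1 to Osgep (0.814) and Arpc5l (0.809).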

How the data were processed

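Each library was deposited by the authors as a matrix of raw UMI counts, whole numbers that had not been normalised. The submitters' processing notes name Cell Ranger 3.0.1 and mm10 with no role; strand use in counting is not given in the sources used here, and by GENCODE M21 exons of Tgfb2, Tgfb3 and Ltbp2 overlap those of genes on the other strand, and exons of Tgfbr3 those of Gm43422 on its own strand, whose reads cannot be told apart. The 10 genes and the gene lists were chosen with earlier results of these data known. Cells with at least 200 genes were clustered jointly (scanpy 1.11.5, Leiden resolution 1.0, 22 clusters), without the 10 genes, the listed pathway genes and mitochondrial genes. The doublet caller, set to an expected fraction of 0.06, marked 31 of 15958 cells, 0.194%. Those cells were left out, the calls were not checked, and doublets may remain. Clusters were named by their markers; those led by mitochondrial genes or with mixed markers stayed unnamed. UMIs were summed per library and class and tested with edgeR 4.0.16 (quasi-likelihood, TMM, filterByExpr, Benjamini-Hochberg, threshold 0.05). The state test was also run on counts simulated from edgeR's own fitted means and dispersion. Such counts follow the model, so they cannot show how well it fits these data. DESeq2 1.42.0 was an alternative. The 4 genes that split the states were left out of the fibroblast calls. The SE is the log2 fold change over the root of F. Depth was 29166129 to 59957945 UMIs a library. Named were all 10 genes, the 2 most similar genes of each, and from each list the called genes, up to the 4 with the largest change; Fbn1, Mmp14, Furin, Bmp4, Fstl1, Chrd, Postn, Id1, Col1a1, Col1a2, Fn1, Smad2, Smad3 and Smad4 were added after their values were seen.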

Additional observations from a re-analysis of the deposited data

Results flagged for a closer look

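2 state differences pointed opposite ways in groups of libraries. Smad7 was higher in Cilp/Thbs4 fibroblasts by 12.4 CPM in stored 10x and lower in both fresh 10x libraries. Tgfbr1 was lower in Cilp/Thbs4 fibroblasts of BD 1 by a difference of -2.7 and higher in both fresh 10x libraries. These differences between groups were not tested, apart from the interaction with platform, in which Tgfbr1 had -0.26 (edgeR adjusted p = 0.951) and Smad7 -0.19 (adjusted p = 0.97).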

How the results depend on the processing

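In the fibroblast state contrast 2043 genes passed, and 1338 on 10x alone, 630 with no replicate block and 1427 to 1895 when 1 library was left out. Of the 10 genes 7 passed, 3 with no replicate block and 5 to 7 when 1 library was left out. Both states come from the same libraries, so the block is the main fit. The interaction with platform called 19 genes, and 147 with no filter on low counts. With DESeq2 the platform contrasts called 707 genes in Cilp/Thbs4 fibroblasts, 502 in Clec3b/Efemp1 fibroblasts and 4035 in epithelial-like cells, against 3529, 2482 and 6542 with edgeR. For storage DESeq2 called 73, 39 and 163, against 384, 240 and 269. Storage in Cilp/Thbs4 fibroblasts gave 976 with no filter. With BD 2 fitted beside BD 1 storage gave 99 in Clec3b/Efemp1 fibroblasts and 481 in epithelial-like cells. The causes were not tested. Higher calls were 48.5% of platform calls in Cilp/Thbs4 fibroblasts (36.2% with DESeq2), 46% in Clec3b/Efemp1 fibroblasts (29.7%) and 67.4% of storage calls in Cilp/Thbs4 fibroblasts (79.5%, and 54.9% with no filter). With no filter the median of all genes in the platform contrast of Clec3b/Efemp1 fibroblasts was 0.19, against 0.01.

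Among alternatives with an adjusted p, directions reversed only where the value was near 0 and did not pass, and the cause was not tested. These were Inhba in BD 1 epithelial-like cells (0.16 with BD 2, 0.02 with no filter), Tgfb2 after storage in Cilp/Thbs4 fibroblasts (-0.02 with BD 2, -0.05 with DESeq2, -0.02 with no filter) and, with no filter, Tgfb2 (0.04) and Inhba (0.01) after storage in Clec3b/Efemp1 fibroblasts. Leaving out a fresh library leaves the condition fits no residual degrees of freedom. Those values had no test, and their directions are not counted here. Some compared values lay between the fresh ones, where the direction can turn on which fresh library is left out. In Cilp/Thbs4 fibroblasts Ltbp2 was 116 CPM in stored 10x against 187 and 110 in fresh 10x. Tgfb2 was 30.6 there in BD 1 against 26 and 47.2. Ltbp2 after storage in Clec3b/Efemp1 fibroblasts ranged from -3.58 to -2.51. Levels in the highest class moved by over 1 SD in 2 of 30 alternatives, Tgfbr1 in macrophage-like cells to 309 at Leiden resolution 2.0 and Smad7 in T-like cells to 507 as a mean over cells. Inhba counts of 2 to 15 UMIs in Clec3b/Efemp1 fibroblasts limit its fold change, and mural-like values rest on 7 to 67 cells.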
